A study of Mus musculus with 47 samples.

Results

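The hepatic mRNA of 10 genes of the NRF2 and glutathione defence system was followed in 47 mice of 8 groups. The genes were *Nfe2l2*, *Keap1*, *Gclc*, *Gclm*, *Gsr*, *Slc7a11*, *Txnrd1*, *Srxn1*, *Nqo1* and *Hmox1*, and their probes were found by the gene name printed in the array files. They are 10 of the 37074 gene names on the array and had 16 of its 56605 gene probes. Of these, 11 probes of 9 genes were tested, and each was well above background in all 47 mice. The 5 probes that were not tested were all 4 probes of *Slc7a11* and 1 of the 2 probes of *Hmox1*.

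The mice were C57BL/6J males and females, 6 months old, and were *Pxr*+/+ or *Pxr*-/- littermates (PxrWT and PxrKO in the labels) born to *Pxr*+/- parents. The deletion of the pregnane X receptor PXR (gene *Nr1i2*) affected the whole body. Cont mice (CTRL in the labels) drank plain water. ATB mice drank an antibiotic cocktail for 2 weeks, in which vancomycin was at 0.5 g/L and both ampicillin and neomycin at 1 g/L. Livers were taken at ZT6. Each group held 6 mice, except the *Pxr*-/- Cont males, with 5. Each group had been kept in 2 cages, and the cage of each mouse was not analysed here, so the p-values measure the spread between these mice only.

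NRF2, encoded by *Nfe2l2*, is a transcription factor that is held back in the cytoplasm and sent for degradation by KEAP1. Electrophiles and oxidants modify KEAP1, and NRF2 then enters the nucleus, pairs with small MAF proteins and binds antioxidant response elements in its target genes. In the liver, these targets supply glutathione, regenerate thioredoxin, and break down quinones and heme.

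Sequences matching the core of the antioxidant response element, the letters TGACNNNGC on either strand, were looked for near the start of each gene, since they are where NRF2 can bind. RefSeq promoter windows (build GRCm38.p6, 250 bases before to 50 bases after a start) were at hand for 7 of the 10 genes, with 9 starts in all. *Gclc*, *Gsr* and *Hmox1* were not listed. The 4 matches are given here 5′ to 3′ on the strand of the gene, with the match in capitals and 6 flanking bases on each side:

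*Nfe2l2*, chr2:75704889-75704909, minus strand: cccaccTGACTCCGCcatgcc

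*Gclm*, chr3:122245417-122245437, plus strand: ccgggcGCACCGTCAactctc

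*Txnrd1*, chr10:82859108-82859128, plus strand: atttttGCTTTGTCAttctga

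*Srxn1*, chr2:152105546-152105566, plus strand: tgggcaGCTAGGTCAgagtga

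Counting the start base as 0, the match of *Nfe2l2* began at position -240, that of *Gclm* at -134, that of *Txnrd1* at -92 and that of *Srxn1* at 28, after the start. The matches of *Gclm*, *Txnrd1* and *Srxn1* read here as GCNNNGTCA, the motif on the opposite strand. The windows of *Keap1*, *Slc7a11* and *Nqo1* held 0 matches, as did both other starts of *Txnrd1*. Of all 32851 promoter windows in the table, 12.4% held the motif. These letters are a description of the windows and say nothing of binding in these livers.

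All 10 hepatocyte marker genes examined were well above background in 47 of 47 mice. *Xist* was above background in all 24 females and in 0 of 23 males, and a probe of *Ddx3y* in all 23 males and in 0 females. *Cyp2c55*, a cytochrome P450 gene that separates the genotypes here, lay between 72 and 353 in *Pxr*+/+ mice and between 577.5 and 1800 in *Pxr*-/- mice in median signal. The probe of *Nr1i2* itself overlapped between genotypes, and its place relative to the deleted part was not given in the sources used here. The 75th percentile of the median signal ranged from 306 to 492.5 between arrays, and 31087 to 34477 probes were well above background. In what follows, a level is the log2 of the normalized median signal, a difference is on the same log2 scale, and a call asks for an adjusted p of 0.05 or less in limma and a fold change above 1.2. The normalization left a shift of whole arrays in place: over all probes tested, males less females had a median of -0.20 in *Pxr*+/+ Cont, -0.03 in *Pxr*+/+ ATB, -0.12 in *Pxr*-/- Cont and -0.18 in *Pxr*-/- ATB mice. Quantile normalization removed it, and its values are given beside many of the results. The shift was over 0.1 in size in 3 other comparisons, PXR deletion in Cont females (-0.11) and in ATB males (-0.13) and ATB in *Pxr*+/+ males (0.10).

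*Nqo1*, which encodes the quinone reductase NAD(P)H dehydrogenase 1, was lower in males than in females in each of the 4 pairs of groups. Its probe (chromosome 8, 109912440 to 109912499 of mm9, minus strand) gave 6.43, 6.93 and 7.25 as the lowest, median and highest level in *Pxr*+/+ Cont males. In *Pxr*+/+ Cont females these were 7.94, 8.08 and 8.51. In *Pxr*+/+ mice given ATB, males were at 6.86, 7.11 and 7.46, and females at 7.77, 8.18 and 8.61. The highest male therefore lay under the lowest female in both treatments of *Pxr*+/+ mice. The 5 *Pxr*-/- Cont males had levels of 6.64, 6.93, 6.94, 7.0 and 7.04. Their female counterparts lay at 7.91, 8.13 and 8.59 (lowest, median and highest). Among *Pxr*-/- mice given ATB, males lay at 6.38, 6.82 and 7.09, and females at 8.10, 8.19 and 8.42. The sexes were again apart, and over the whole series the signal before normalization was 84 to 178 in the 23 males and 218 to 403 in the 24 females.

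The log2 difference of *Nqo1* between males and females was -1.21 (standard error 0.14, adjusted p = 1.09e-08) in *Pxr*+/+ Cont mice, a 2.31-fold lower signal in males. It was -1.11 (adjusted p = 8.7e-08) in *Pxr*+/+ ATB, -1.25 (adjusted p = 2.09e-08) in *Pxr*-/- Cont and -1.45 (adjusted p = 9.55e-11) in *Pxr*-/- ATB mice. Groups that did not overlap were found for 15.8%, 6.18%, 6.57% and 9.96% of all probes in these 4 comparisons, and 4.76% of all probes were called lower in males in all 4. *Nqo1* was lower in males on every slide, 6 of 6 in 3 comparisons and 5 of 5 in *Pxr*-/- Cont mice. Under quantile normalization the differences were -0.95, -1.03, -1.08 and -1.24. Within wash batch 2 alone the *Pxr*+/+ ATB difference was -0.75 with an adjusted p of 0.137, the exception among 12 alternatives in the 4 comparisons. The level of *Nqo1* in males was not called different between genotypes (-0.01 in Cont and -0.33 in ATB mice, adjusted p = 0.999 and 0.172). ATB gave 0.19 in *Pxr*+/+ males and 0.10 in *Pxr*+/+ females (adjusted p = 0.476 and 0.842). *Nqo1* in ATB males was lower in the *Pxr*-/- mouse on 6 of 6 slides, although the groups overlapped, and the difference was -0.20 (adjusted p = 0.63) under quantile normalization.

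**Figure D1:**
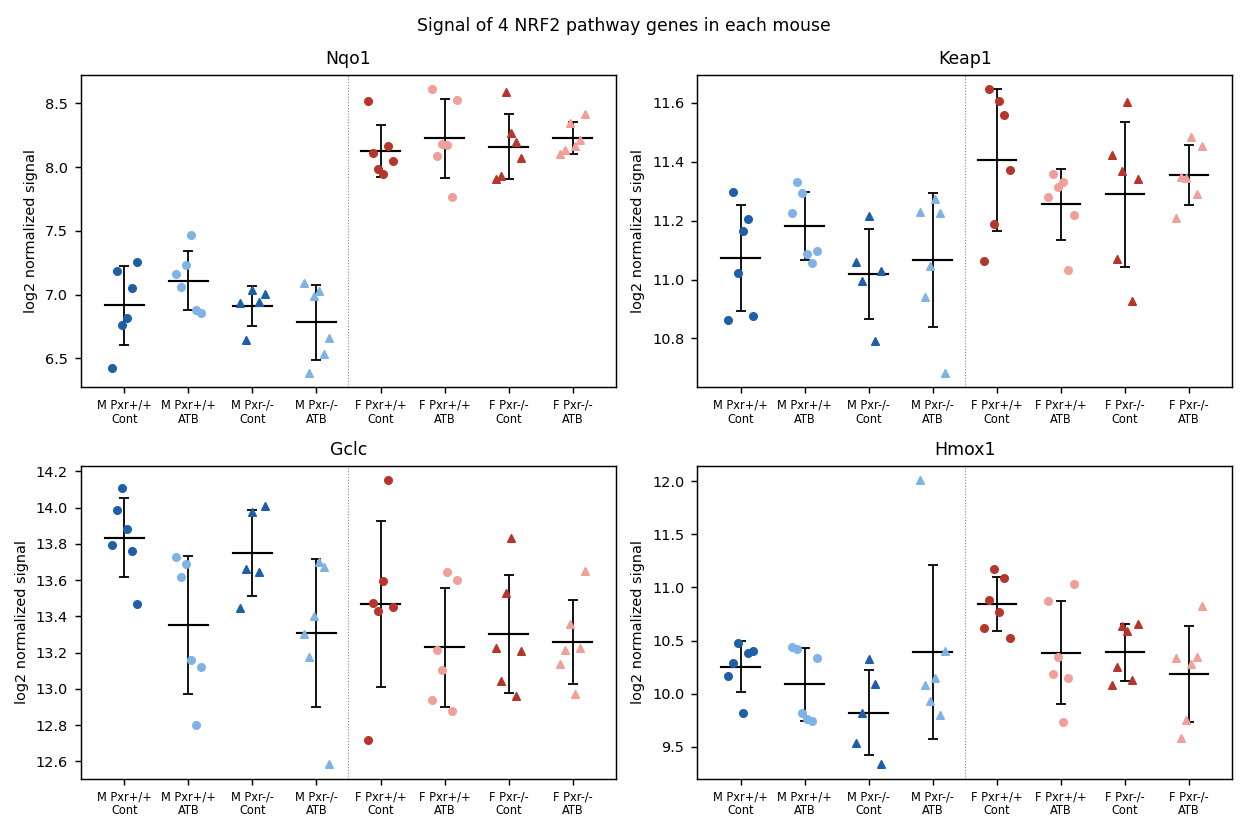
Log2 normalized signal of *Nqo1*, *Keap1*, *Gclc* and *Hmox1* in each of 47 mice (points), by sex (M, F), genotype and treatment, with the mean (line) and SD (bar) of each group, the 4 vertical axes having different ranges. The male and female points of *Nqo1* do not overlap, whereas those of the other genes do, and 1 *Pxr*-/- ATB male stands at 12.01 for *Hmox1*.

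*Nfe2l2* and *Keap1* encode the transcription factor and its sensor at the head of the pathway, and *Nfe2l2* was called in 0 of 12 comparisons at either of its probes. The *Nfe2l2* probe for the RefSeq transcript (chromosome 2, 75513771 to 75513830 of mm9) had group means between 11.08 in *Pxr*-/- ATB males and 11.62 in *Pxr*+/+ Cont females, with a pooled SD of 0.26. Its differences between the sexes were -0.28, -0.17, -0.24 and -0.29 in the order *Pxr*+/+ Cont, *Pxr*+/+ ATB, *Pxr*-/- Cont and *Pxr*-/- ATB, and 0 of them were called. Under quantile normalization they were -0.07, -0.14, -0.09 and -0.10. A second probe, for another *Nfe2l2* transcript, had means between 8.74 and 9.15 and a pooled SD of 0.36. The pair of probes went opposite ways between the sexes of *Pxr*+/+ Cont mice, with 0.24 (adjusted p = 0.355) at the second probe. Under quantile normalization that probe was called higher in *Pxr*+/+ Cont males (0.49, adjusted p = 0.0463).

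*Keap1* was called lower in males than in females in 2 of 4 comparisons. Its probe lies within chromosome 9, 21035292 to 21035732 of mm9, a span longer than the probe itself. Its levels were 10.86, 11.09 and 11.30 (lowest, median and highest) in *Pxr*+/+ Cont males and 11.06, 11.47 and 11.65 in the females. In *Pxr*-/- ATB mice they were 10.68, 11.14 and 11.27 in males and 11.21, 11.35 and 11.48 in females. Both pairs of groups overlapped. The differences were -0.33 (standard error 0.11, adjusted p = 0.0162) in *Pxr*+/+ Cont and -0.29 (0.11, adjusted p = 0.0419) in *Pxr*-/- ATB mice. The shift of whole arrays was -0.20 and -0.18 there, and under quantile normalization the differences of *Keap1* were -0.11 and -0.09 (adjusted p = 0.39 and 0.531). The call in *Pxr*+/+ Cont mice was lost without male replicate 6 (adjusted p = 0.0553). That in *Pxr*-/- ATB mice was lost without any 1 of female replicates 2, 3, 4 and 6 or male replicates 2, 3 and 6, with differences between -0.21 and -0.29. In *Pxr*-/- Cont mice the difference was -0.27 (adjusted p = 0.099), and was called without female replicate 5 (-0.35, adjusted p = 0.0268). In *Pxr*+/+ ATB mice the *Keap1* difference was -0.07 (adjusted p = 0.759).

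*Gclc* and *Gclm* encode the catalytic and the modifier subunit of glutamate-cysteine ligase, which makes the first and limiting step of glutathione synthesis. For *Gclc* (chromosome 9, 77641296 to 77641355), the lowest, median and highest levels were 13.47, 13.84 and 14.11 in *Pxr*+/+ Cont males and 12.80, 13.39 and 13.73 in ATB males. In *Pxr*-/- males given ATB they were 12.58, 13.35 and 13.70, and the 5 Cont mice had 13.45, 13.65, 13.66, 13.98 and 14.01. ATB mice had the lower medians in both genotypes, with overlap. The difference of ATB from Cont was -0.48 for *Pxr*+/+ males (standard error 0.19, 95% interval -0.87 to -0.10). For *Pxr*-/- males it was -0.44 (standard error 0.20, 95% interval -0.84 to -0.04). It was negative on 6 of 6 and 5 of 5 slides, but neither passed over all probes (limma, adjusted p = 0.172 and 0.703). Under quantile normalization the differences were -0.60 and -0.46 (adjusted p = 0.0774 and 0.378). With only the groups compared in the fit, the value in *Pxr*+/+ males was called (adjusted p = 0.0408). In females the differences were -0.24 and -0.04 (adjusted p = 0.678 and 0.958), and the male effect less the female effect was -0.24 (adjusted p = 0.651) in *Pxr*+/+ and -0.40 (adjusted p = 0.907) in *Pxr*-/- mice.

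Between the sexes, *Gclc* differed by 0.36 (adjusted p = 0.127) in *Pxr*+/+ Cont and by 0.45 (adjusted p = 0.122) in *Pxr*-/- Cont mice, males less females. Here the scaling decided the call: quantile normalization gave 0.56 and 0.57 (adjusted p = 0.0216 and 0.0302), and the authors' processed values 0.48 and 0.53 (adjusted p = 0.042 and 0.0436). Without female replicate 5, which had the highest level of its group at 14.15, the *Pxr*+/+ Cont difference was 0.51 (adjusted p = 0.0408). Within wash batch 1 it was 0.76 and within wash batch 2 it was -0.05. In ATB mice, the differences were 0.12 and 0.05.

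*Gclm* (chromosome 3, 121967737 to 121967796) was called in 0 of 12 comparisons. Its group means ranged from 12.98 to 13.20 with a pooled SD of 0.18, and its largest difference was -0.22 (adjusted p = 0.467), for ATB in *Pxr*+/+ females. *Gsr*, the glutathione reductase that turns oxidized glutathione back into its reduced form, was likewise called in 0 of 12 comparisons. Its group means ranged from 12.11 to 12.36, with a pooled SD of 0.13. In mice given ATB, the *Gsr* difference of *Pxr*-/- from *Pxr*+/+ females was 0.24, positive on 6 of 6 slides, but did not pass the test (adjusted p = 0.698). Between the sexes of *Pxr*+/+ Cont mice the *Gsr* difference was 0.03, and 0.31 (adjusted p = 0.00124) with the processed signal less its 75th percentile. Under quantile normalization it was 0.245 (adjusted p = 0.015), which was not called as it lay under the fold limit. *Slc7a11*, which encodes the cystine carrier of the glutamate exchanger, gave no level: its 4 probes were well above background in 0, 0, 0 and 1 mice. The exception was replicate 3 of the *Pxr*+/+ Cont females, with a median signal of 49, where that probe had a median of 18 over all mice.

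*Txnrd1* encodes the cytosolic thioredoxin reductase and *Srxn1* the sulfiredoxin that repairs overoxidized peroxiredoxins. The 2 probes of *Txnrd1*, both on chromosome 10 (82360230 to 82360289 and 82338379 to 82338438), were called in 0 of 12 comparisons each. Their group means spanned 0.32 and 0.28 with pooled SDs of 0.17 and 0.21. In *Pxr*+/+ females, ATB gave -0.23 and -0.28 at the 2 probes (adjusted p = 0.437 and 0.442). *Srxn1* (chromosome 2, 151937009 to 151937068) was called lower in males than in females in 1 comparison, that of *Pxr*-/- ATB mice. Its levels there were 10.89, 11.21 and 11.58 in males and 11.31, 11.62 and 11.79 in females (lowest, median and highest), and the groups overlapped. The difference was -0.35 (standard error 0.12, adjusted p = 0.0294), and -0.15 (adjusted p = 0.369) under quantile normalization. It was not called without any 1 of female replicates 2, 3 and 6 or male replicates 2, 3 and 6 (-0.28 to -0.33, adjusted p = 0.0553 to 0.0997). The PXR effect on *Srxn1* in ATB mice was -0.30 in males and 0.20 in females. The difference between these effects was -0.50, with an unadjusted p of 0.00602, but was not called over all probes (adjusted p = 0.484). Under quantile normalization the effects were -0.13 and 0.20, and their difference was -0.34 (adjusted p = 0.997).

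*Hmox1*, the inducible heme oxygenase, had the widest spread between mice of a group among the 11 probes, with a pooled SD of 0.45. A single mouse, replicate 1 of the *Pxr*-/- ATB males, added to this. The SD of that group was 0.82 with it and 0.23 without it, and the next widest probe, the second of *Nfe2l2*, had a pooled SD of 0.36. The lowest, median and highest levels of its tested probe (chromosome 8, 77624406 to 77624466) were 10.53, 10.83 and 11.17 in *Pxr*+/+ Cont females and 9.82, 10.33 and 10.48 in *Pxr*+/+ Cont males. These groups did not overlap, as was so for 15.8% of all probes in this comparison. The difference of -0.59 (standard error 0.25) was not called (adjusted p = 0.0619, or 0.00691 with only the groups compared in the fit). Under quantile normalization it was -0.36 (adjusted p = 0.334). In Cont mice, *Pxr*-/- less *Pxr*+/+ was -0.45 (95% interval -0.96 to 0.05) in females and -0.43 (-0.96 to 0.09) in males, with adjusted p = 0.284 and 0.997. The 5 *Pxr*-/- Cont males lay at 9.34, 9.53, 9.82, 10.09 and 10.33.

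Replicate 1 of the *Pxr*-/- ATB males stood far above its group, at 12.01 where the other 5 mice lay between 9.80 and 10.4. It set the ATB effect on *Hmox1* in *Pxr*-/- males, which was 0.57 with this mouse and 0.25 without it (adjusted p = 0.713 and 0.923). It also set the sign of the sex difference in *Pxr*-/- ATB mice (0.21 with it, -0.13 without) and of the PXR effect in ATB males (0.31 and -0.03). A second *Hmox1* probe, for another transcript, was well above background in 1 of 47 mice.

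*Hmox1* moved with genes of macrophages, which clear heme and express this enzyme in the liver. Over 47 mice, with group means and wash batch removed, it correlated with the mean of 16 macrophage marker genes (all 16 tested) at Pearson's r = 0.85 and Spearman's rho = 0.80 (permutation within groups, p = 1e-05 for each, the smallest that 100000 permutations give, and 0.00099 adjusted over 99 relations of members to 9 cell type lists). Without the 2 mice farthest from the median of the macrophage mean, r was 0.78. Within wash batches 1, 2 and 3 (23, 16 and 8 mice), r was 0.86, 0.74 and 0.94, and under quantile normalization it was 0.84 over all mice. Of the 99 relations, 5 others passed, all of *Nfe2l2*: its first probe with B cell (r = 0.49), sinusoidal endothelial (0.55) and stellate cell and fibroblast genes (0.52), and its second with the latter lists (0.54 and 0.49). Under quantile normalization 15 passed, 12 of them negative, and of these *Nfe2l2* relations that with B cell genes passed. The gene outside the members with the highest r to *Hmox1* was *Adgre1* (r = 0.90), which encodes the macrophage surface protein F4/80. *Adgre1* is itself 1 of the 16 marker genes in the macrophage mean. It was picked as the highest of all probes, and its r is a description. Among Cont females, the macrophage mean was 11.03 with *Pxr*+/+ (lowest 10.71, highest 11.54) and 10.17 with *Pxr*-/- (lowest 9.81, highest 10.44). Among Cont males it was 9.98 with *Pxr*+/+ (lowest 9.75, highest 10.19) and 9.49 with *Pxr*-/- (lowest 8.99, highest 10.02). ATB females had 10.45 with *Pxr*+/+ (lowest 9.53, highest 11.17) and 10.04 with *Pxr*-/- (lowest 9.54, highest 10.52), and ATB males 9.73 (lowest 9.20, highest 10.36) and 9.92 (lowest 9.09, highest 11.20). *Hmox1* and the macrophage mean both had their highest group mean in *Pxr*+/+ Cont females and their lowest in *Pxr*-/- Cont males. Of the 16 macrophage genes, 15 were called lower in males of *Pxr*+/+ Cont mice, where 30.7% of all probes were called, 8 in *Pxr*+/+ ATB (11.5%) and 7 in *Pxr*-/- Cont mice (14.8%). In *Pxr*-/- ATB mice 0 were lower and 1 higher (25.7%). Male replicate 1 of that group, which stood out for *Hmox1*, had a macrophage mean of 11.20, whereas the other males lay at 9.09 to 9.96. The macrophage calls and means without this mouse were not examined. PXR deletion gave 10 lower in Cont females (3.05%), and 0 calls in the other 3 comparisons. Some other cell type lists had many calls lower in *Pxr*+/+ Cont males, where 30.7% of all probes were called. They were 5 of 7 T and NK cell genes, 5 of 8 sinusoidal endothelial genes and 6 of 8 stellate cell and fibroblast genes. Hepatocyte genes had 1 of 10 called lower, B cell genes 1 of 3, neutrophil genes 2 of 6 and cholangiocyte genes 0 of 5. Of 4 erythroid genes, 1 was called higher and 0 lower. The part of macrophages or other cell types in the *Hmox1* values was not tested. Fewer macrophages and less RNA per macrophage cannot be told apart in whole liver.

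**Figure D2:**
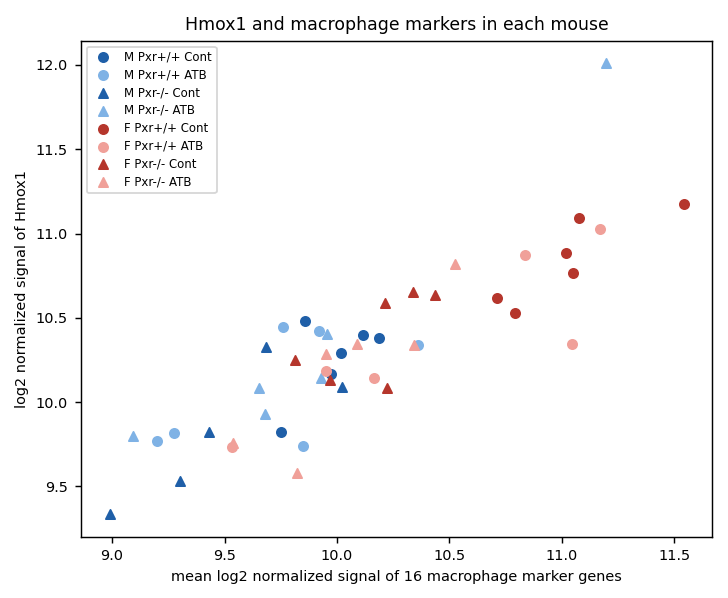
Log2 normalized signal of *Hmox1* against the mean log2 normalized signal of 16 macrophage marker genes, 1 point per mouse, coloured and shaped by group. The points rise together (r = 0.85 with group means and wash batch removed), with the *Pxr*+/+ Cont females at the upper right and 1 *Pxr*-/- ATB male at 12.01 above the others.

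With all members set side by side, the sexes gave the calls. PXR deletion gave 0 called probes of 11 in each of 4 comparisons by limma, where 0.146% (Cont males), 0.885% (ATB males), 3.05% (Cont females) and 0.158% (ATB females) of all probes were called. ATB also gave 0 of 11 in each, against 0.946% in *Pxr*+/+ males, 0.0728% in *Pxr*-/- males, 0.0121% in *Pxr*+/+ females and 0.0273% in *Pxr*-/- females. An unadjusted p under 0.05 was seen in 4 of 44 values for PXR deletion (9.09%, and 13.5% over all probes) and in 7 of 44 for ATB (15.9%, and 11.8% over all probes). Leaving out *Hmox1*, whose intervals were wider, the 95% intervals of the PXR effect lay between -0.78 and 0.49 and those of the ATB effect between -0.87 and 0.68. Between males and females, 2 of 11 probes were called in *Pxr*+/+ Cont (*Nqo1* and *Keap1*), 1 in *Pxr*+/+ ATB (*Nqo1*), 1 in *Pxr*-/- Cont (*Nqo1*) and 3 in *Pxr*-/- ATB mice (*Nqo1*, *Keap1* and *Srxn1*). The shares over all probes were 30.7%, 11.5%, 14.8% and 25.7%, and the members' counts lie near or under them.

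Most of the sex calls over all probes were lower in males, 93.6%, 71.2%, 84.8% and 91.4% in the same order, and 51.3%, 52.8%, 47.8% and 49.7% under quantile normalization. The share of lower calls also moved with the scaling for PXR deletion in Cont females (94.2% and 57.7% under quantile normalization) and ATB males (71.6% and 17.1%). For ATB it moved in *Pxr*+/+ males (14.7% and 66.4%), *Pxr*-/- males (54.2% and 68.4%) and *Pxr*-/- females (11.1% and 39.3%). Between the sexes under quantile normalization, 3, 1, 2 and 1 of the 11 member probes were called, beside 14.4%, 13.7%, 11.6% and 12.0% of all probes. *Nqo1* was called in each of these comparisons, and *Gclc* was called higher in males in both Cont comparisons. Whether an effect differed between sexes or genotypes was tested in 6 differences of effects, which gave 0 called probes of 11 each and 6 of 66 values with an unadjusted p under 0.05 (9.09%, and 8.22% over all probes). The shares over all probes were 0.0152% and 0.0364% for PXR deletion in males less females (Cont and ATB), and 0.0121% and 0% for ATB in *Pxr*-/- less *Pxr*+/+ mice (males and females). They were 0.0303% and 0.00303% for ATB in males less females (*Pxr*+/+ and *Pxr*-/-). For *Nqo1*, the sex difference of *Pxr*-/- mice less that of *Pxr*+/+ mice was -0.04 in Cont (95% interval -0.45 to 0.38) and -0.33 in ATB mice (-0.74 to 0.07).

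**Figure D3:**
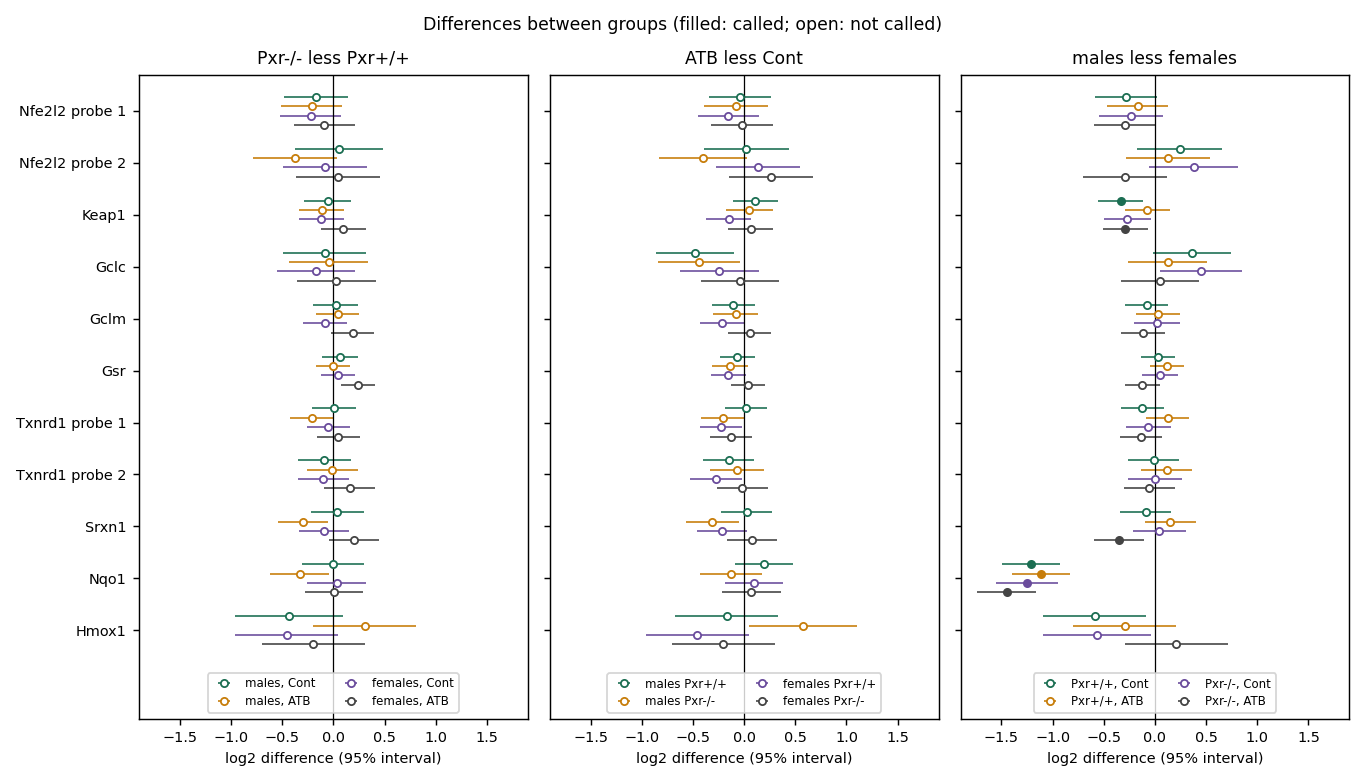
Log2 differences of the 11 tested probes (rows, probes of 1 gene numbered) with 95% intervals, for *Pxr*-/- less *Pxr*+/+, ATB less Cont and males less females, the 4 colours marking the groups in which each was taken. Filled points were called, which are the 4 of *Nqo1*, 2 of *Keap1* and 1 of *Srxn1*, all in males less females.

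Around the members, 6 lists with 75 genes of the same system had 116 tested probes of 73 genes. Few of them moved with genotype or treatment. In *Pxr*+/+ males, ATB lowered *Ephx1*, which encodes microsomal epoxide hydrolase, from 16.03 to 15.33 (difference -0.70, standard error 0.17, adjusted p = 0.0309). It was the only called probe of 116, a share of 0.862% beside 0.946% of all probes. Under quantile normalization 7 were called, all lower (6.03%, and 1.02% of all probes). In the 3 other ATB comparisons 0 were called. PXR deletion called 4.31% of the 116 probes in Cont females, beside 3.05% of all probes. It raised *Abcc3*, an efflux pump for conjugates, by 0.62 and 0.50 at its 2 called probes (adjusted p = 0.0103 and 0.0167), and lowered *Btrc*, an adaptor of an NRF2-degrading ligase (-0.37, adjusted p = 0.0396). *Slc25a39*, the mitochondrial glutathione carrier, and *Prdx4*, a peroxiredoxin of the endoplasmic reticulum, were lower as well (-0.35 and -0.29, adjusted p = 0.0321 and 0.046). Of the 116 probes, 2 were called higher and 3 lower there. The 3 lower calls were lost under quantile normalization. In ATB males, PXR deletion lowered *Btrc* (-0.43, adjusted p = 0.0341), the 1 call there (0.862%, and 0.885% of all probes). That call was lost under quantile normalization, where 2 other probes were called higher (1.72%, and 0.637% of all probes). The remaining PXR comparisons gave 0 calls in Cont males and 0 in ATB females, beside 0.146% and 0.158% of all probes. Under quantile normalization Cont males had 0 calls (0.252% of all probes). ATB females had 2 there, both higher (1.72%, and 0.243% of all probes).

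Between the sexes, 6 probes of the lists were called higher and 26 lower in males of *Pxr*+/+ Cont mice (27.6% of 116), 12 and 15 in *Pxr*+/+ ATB (23.3%), 7 and 16 in *Pxr*-/- Cont (19.8%) and 4 and 35 in *Pxr*-/- ATB mice (33.6%). The shares over all probes were 30.7%, 11.5%, 14.8% and 25.7%. Under quantile normalization the counts were 15 and 7, 17 and 13, 14 and 8, and 11 and 12, or 19.0%, 25.9%, 19.0% and 19.8%, beside 14.4%, 13.7%, 11.6% and 12.0% of all probes. In all 4 comparisons and under both scalings, 5 genes were called lower in males at 1 probe each, 4.31% of the 116 probes beside 2.37% of all probes. These were *Abcc4*, an efflux pump (-1.06, -1.15, -1.29 and -1.15 in the same order), *Ggct*, a gamma-glutamyl cyclotransferase of glutathione breakdown (-1.0, -0.66, -1.05 and -1.02), and *Sod3*, the extracellular superoxide dismutase (-1.03, -0.70, -0.62 and -0.81). *Cbr1*, a carbonyl reductase, followed with -0.75, -0.52, -0.65 and -0.68, and *Slc3a2*, the heavy chain that SLC7A11 pairs with, with -0.55, -0.51, -0.58 and -0.62. Called higher in males in all 4 and under both scalings were 3 genes, also at 1 probe each, 2.59% of the 116 probes beside 1.21% of all probes. *Asns*, asparagine synthetase and a target of ATF4, differed by 1.70, 2.13, 1.23 and 1.53 at 1 of its 2 probes, and *Aox1*, an aldehyde oxidase, by 0.59, 0.58, 0.56 and 0.50. *Mgst1*, a microsomal glutathione transferase, differed by 0.34, 0.38, 0.31 and 0.27 at 1 of its probes. Another *Mgst1* probe was called higher in *Pxr*+/+ ATB (0.40) and *Pxr*-/- Cont mice (0.32), but not in all 4 comparisons under both scalings.

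By role, the regulators of NRF2 had 2 of 21 probes called in *Pxr*+/+ Cont mice, both lower in males (*Btrc* and *Nfe2l1*), and 6 of 21 in *Pxr*-/- ATB mice, all lower. Under quantile normalization 1 was higher and 0 lower in the first, and 0 were called in the second, beside 14.4% and 12.0% of all probes. Thioredoxins and peroxiredoxins had 10 of 23 (43.5%) and 12 of 23 (52.2%) in the same comparisons, where 30.7% and 25.7% of all probes were called, all lower in males, with medians of -0.27 in each where the median over all probes was -0.20 and -0.18. In *Pxr*+/+ ATB mice this list had 2 higher and 4 lower (26.1%), and in *Pxr*-/- Cont mice 0 higher and 5 lower (21.7%). The regulators had 1 higher and 1 lower in *Pxr*+/+ ATB and 2 lower in *Pxr*-/- Cont mice (9.52% in each). Of all probes, 11.5% and 14.8% were called in these 2 comparisons. Under quantile normalization the thioredoxin and peroxiredoxin counts of 10 and 12 became 3 higher and 0 lower, and 2 higher and 3 lower. The same 14.4% and 12.0% of all probes apply there. Those that kept their call under quantile normalization in *Pxr*-/- ATB mice included *Txnrd2*, the mitochondrial thioredoxin reductase (-0.61), and *Prdx4* (-0.50). *Txnip*, the thioredoxin inhibitor, was lower in males in all 4 comparisons in at least 1 probe, by -1.47 (adjusted p = 0.000412) in *Pxr*+/+ ATB mice, the one in which it was also called under quantile normalization at that probe. Among other ATF4 targets, *Phgdh*, the first enzyme of serine synthesis, was lower in males in all 4 comparisons (-0.55, -0.43, -0.58 and -0.36), the last of which was lost under quantile normalization, and *Fgf21*, a liver hormone, was lower in both ATB comparisons (-1.22 and -1.57).

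How the members varied between mice of the same group was examined with group means and wash batch removed. Over 47 mice, the 55 pairs of the 11 probes had a median r of 0.42, and of 0.16 under quantile normalization. The members also followed the brightness of the array. At the probes of *Nfe2l2*, r with brightness was 0.82 and 0.67, and 0.58 and 0.46 under quantile normalization. For *Keap1* and *Gclm* it was 0.67 and 0.53, and 0.15 and -0.03 under quantile normalization. The remaining probes had 0.34 to 0.63, and -0.27 to 0.18 under quantile normalization. *Keap1* and *Gclm* had the highest r of any pair, 0.81 (rho = 0.74, permutation within groups p = 1e-05 for r and 2e-05 for rho, adjusted over 55 pairs 6.11e-05 and 0.00011), with 0.75 without the 2 mice farthest from the median and 0.72 under quantile normalization. The 2 ligase subunits *Gclc* and *Gclm* had r = 0.77 (rho = 0.75, permutation p = 1e-05, adjusted 6.11e-05), 0.73 without 2 mice and 0.70 under quantile normalization. The probes of *Keap1*, *Gclc*, *Gclm*, *Gsr* and *Txnrd1* formed 15 pairs, with r from 0.51 to 0.81 and, under quantile normalization, from 0.37 to 0.72. Between these probes and those of *Nfe2l2*, *Srxn1*, *Nqo1* and *Hmox1*, r was -0.01 to 0.46, and -0.51 to 0.26 under quantile normalization. The grouping was chosen after the values were seen and is given without a test. The first *Nfe2l2* probe had r = 0.42 with *Gclc* and 0.28 with *Gclm*, and the second 0.23 and 0.08. Under quantile normalization these were 0.19, -0.26, 0.0008 and -0.38. All of these points share slides, labelling and brightness of the array.

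**Figure D4:**
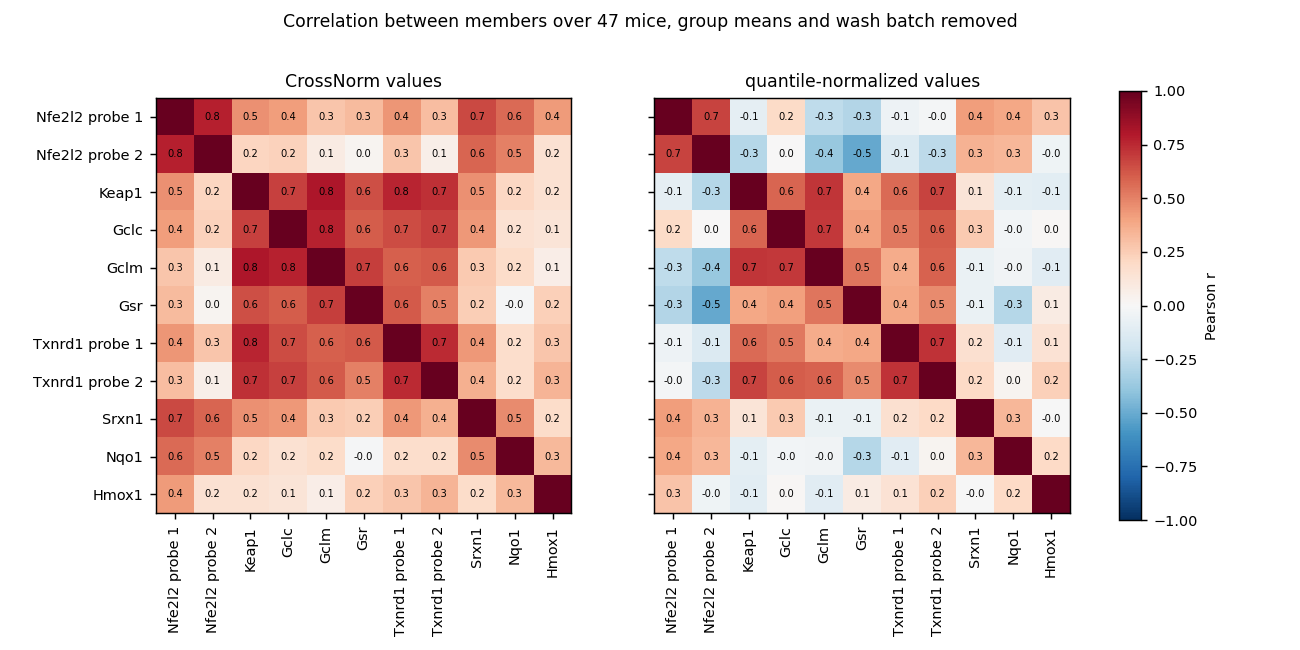
Pearson's r between the 11 tested probes over 47 mice with group means and wash batch removed, in the CrossNorm values (left) and in quantile-normalized values (right), red for positive and blue for negative. The pairs of *Keap1*, *Gclc*, *Gclm*, *Gsr* and *Txnrd1* are red in both panels (0.51 to 0.81 and 0.37 to 0.72), whereas many pairs with *Nfe2l2* turn blue at the right.

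For each member, the genes outside the list with the most similar variation between mice were found by the same r over 47 mice. For *Nqo1*, *Cd36*, which encodes a fatty acid carrier, had r = 0.74, or 0.65 under quantile normalization. For *Gclc* they were *Mreg* and *Kcnq1ot1* (0.87 for each), with *Lonrf3* (0.87) and *Mreg* (0.84) under quantile normalization. *Gclm* had *Zc3h18* and *Cep164* (0.86 for each) and *Srxn1* had *Cyb5b* and *Fam110a* (0.78 and 0.76), the same genes in both settings. For the other probes, at least 1 of the nearest genes changed with the scaling. *Zc3h18* and *Mrps34* were nearest to *Keap1* (0.88 for each), *Mark3* and 2210018M11Rik to *Gsr* (0.82 for each), and *Ermard* and *Isca2* to the first *Nfe2l2* probe (0.85 for each). These genes were picked as the highest of all probes, and their r is a description.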

How the data were processed

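Total liver RNA of each mouse was labelled with Cy3 and hybridized by the authors to 1-colour Agilent mouse arrays (mm9 probe coordinates), 1 array per mouse, on 6 slides washed in 3 batches. The deposited intensity is the median brightness of each spot, read with Agilent Feature Extraction 10.10.1.1, with no background subtracted. The deposited processed table holds log2 values, for which the authors filtered probes, removed the wash effect and applied CrossNorm; how they stacked arrays is not given in the sources used here.

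Here, log2 of the median intensity was averaged over spots of a probe, without control spots and 422 non-uniform values. Probes were tested where some group had them well above background on 5 or more arrays (32979 probes). The wash batch effect was removed, and CrossNorm was run on 300 random stacks of 1 array per group (seed 20). In the deposited table, the medians of the arrays were equal within a group, which was not so here, and the lowest correlation of an array with its deposited column was 0.999. Limma 3.58.1 (R 4.3.3) fitted 8 groups and the wash batch, with 12 comparisons and 6 differences of effects as contrasts. A call needed a Benjamini-Hochberg adjusted p up to 0.05 and, except for differences of effects, a fold above 1.2. Correlations used permutations within groups. Figures were drawn with matplotlib 3.10.9.

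The number of arrays limits the precision. The genes named are the members, called genes of the lists (up to 4 per side), the 2 genes most like each member (1 of them is not reported here), and label checks. Members and lists were chosen with earlier results of these data known. Alternatives tried are other normalizations, filters, batch terms, single batches and leaving out each mouse.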

Additional observations from a re-analysis of the deposited data

Results flagged for a closer look

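Of 88 sets of values (11 probes in 8 groups), 2 held a mouse far from the rest, and chance alone gives about 1 in 20. The *Hmox1* level of *Pxr*-/- ATB male replicate 1 was 12.01, with the other 5 mice at 9.80 to 10.4, and without it the mean ± SD of the group was 10.07 ± 0.23 (n = 5) instead of 10.39 ± 0.82 (n = 6). Its macrophage mean, 11.20, was the highest of its group as well. The *Nqo1* level of *Pxr*-/- Cont male replicate 3 was 6.64, below the other 4 mice at 6.93 to 7.04, which leaves the sex difference of that pair at -1.16 to -1.30 whichever mouse is left out.

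The *Hmox1* probe that was not tested had a median signal of 83 in *Pxr*-/- Cont female replicate 1, where the other 46 mice gave 16 to 32.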

How the results depend on the processing

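Over the 18 counts of called member probes, 200 of 216 values under other settings stayed within 1.5 times the count reported. So did 274 of 282 with 1 mouse left out. Most of these counts were 0, and only those between the sexes held calls. Of 12 other settings each, the sex counts moved in 7 for *Pxr*-/- ATB, 4 for *Pxr*-/- Cont, 1 for *Pxr*+/+ ATB and 3 for *Pxr*+/+ Cont mice. *Nqo1* was lower in males in every one of its 48 other settings (-0.75 to -1.47). For *Pxr*-/- ATB mice, the 3 sex calls became 1 (*Nqo1*) under quantile normalization, the processed signal less the 75th percentile, normexp with quantile normalization, the authors' processed values, a fit of only the groups compared, and within wash batch 1 or 2. For *Pxr*-/- Cont mice, the 1 call became 2, 3, 2 and 2 under the first 4 of these. For *Pxr*+/+ Cont mice, the 2 calls became 4 with the processed signal, 1 without the wash batch and 1 within wash batch 2, where the *Pxr*+/+ ATB count became 0. For ATB in *Pxr*+/+ males, a fit of only the groups compared gave 1 (*Gclc*). With 1 mouse left out the counts were 1 to 3, 1 to 2 and 1 to 3 in *Pxr*-/- ATB, *Pxr*-/- Cont and *Pxr*+/+ Cont mice, and 0 in every comparison of genotype or treatment. Signs turned for *Gclc* (-0.051) and *Gsr* (-0.16) in *Pxr*+/+ Cont mice within wash batch 2, and for *Gsr* without *Pxr*+/+ Cont female replicate 1 (-0.025, with a range up to 0.071 over the mice left out). The replicate block changed no call of a member (counts of 3, 1, 1 and 2 between the sexes in *Pxr*-/- ATB, *Pxr*-/- Cont, *Pxr*+/+ ATB and *Pxr*+/+ Cont mice, 0 elsewhere). Mice with the same replicate number often shared a slide and wash batch as well, and were not treated as pairs in the main fit. Deviations of 69 pairs with the same number correlated at -0.34 to 0.55, median -0.06. The cause of these changes was not tested.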
